A study of Mus musculus with 10 samples.

Results

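The ribosome of the cytosol is built from a large and a small subunit, and the genes for its proteins were compared between aneurysmal and sham aorta. Members were all gene names on the array made of Rpl, Rps or Rplp, a number and at most 1 closing letter a, l, x or y, on spots that are not controls. The rule found 79 names (49 of the large and 30 of the small subunit) among 35527 names on the array, read by 172 of 55681 probes. Male C57BL/6J mice on normal diet, 10 weeks old, had the infrarenal aorta infused for 5 min at 100 mmHg, and the segment was taken 7 days after surgery. Sham mice (n = 5) received saline, and mice with porcine pancreatic elastase (PPE, n = 5) received saline with type I elastase at 1.5 U/mL, an enzyme that breaks down elastic fibres so that the abdominal aorta widens into an aneurysm. Each of the 10 arrays carried un-pooled RNA of 1 aorta (500 ng) in the red channel (Cy5) and the Stratagene universal mouse reference in the green channel (Cy3), and dyes were not swapped. A level is therefore a log2 ratio of aorta over reference for 1 probe, and levels of different probes are not set against each other.

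Ribosomal proteins bind ribosomal RNA and hold the ribosome in shape, and nearly every ribosome carries the full set. Their mRNAs are among the most abundant of a cell and are made together with ribosomal RNA when cells grow or divide. Many begin with a run of pyrimidines at the 5′ end, through which growth signals control their translation, a step that an array of mRNA levels does not read. A few genes have a paralog made in particular tissues. Rpl3l replaces Rpl3 in skeletal and heart muscle, and Rpl10l and Rpl39l are known from male germ cells.

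The start sites of members are shown because such a run was more frequent in them than in all genes, though not present in all. A start sequence from RefSeq (GRCm38.p6) was matched to 58 of the 79 names, and 21 had none in the table used. The 30 bases around the start, 15 on each side, were read on the transcribed strand. The window thus lies in part upstream of the mRNA. At least 6 pyrimidines (C or T) in a row were held by 36 of 58 members (62.1%). This held for 32.7% of all 27025 genes and 34.8% of 69 genes for proteins of the mitochondrial ribosome. Where a gene had several listed starts, that with the longest run was taken, so shares depend on how many starts are listed. A C at any listed start followed by at least 4 pyrimidines was present in 13 of 58 members (22.4%) and in 3.01% of all genes. A run is a description of letters and not evidence of its use. The windows below belong to 4 of the members called higher, to Rps24 and Rpl3l at the other end of the range, and to Mrps36 of the mitochondrial ribosome. They are written 5′ to 3′ with the longest pyrimidine run in capitals.
Rps9, chr7:3704026-3704055, plus strand: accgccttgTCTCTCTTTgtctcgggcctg
Rpl39, chrX:37085208-37085237, minus strand: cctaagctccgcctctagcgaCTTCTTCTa
Rpl12, chr2:32961697-32961726, plus strand: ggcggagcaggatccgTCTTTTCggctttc
Rps28, chr17:33824548-33824577, minus strand: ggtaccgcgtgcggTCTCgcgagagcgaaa
Rps24, chr14:24490663-24490692, plus strand: cccgcgctggggTCCTTCCTTgcgcgttga
Rpl3l, chr17:24727811-24727840, plus strand: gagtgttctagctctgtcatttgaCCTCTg
Mrps36, chr13:100744645-100744674, minus strand: ttatagCTCCTCagtgacatcacacaggct
The run was 9 bases long in Rps9 and in Rps24, whose brightest probes lay at opposite ends of the range below, and 4 in Rps28, which was called higher. It was 6 in Mrps36, which met the limit of 6, and 5 in Rpl3l.

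The arrays lay on 5 slides and 2 scan days. Sham 1, PPE 1 and PPE 2 shared slide 1, the only one of its scan day, sham 2, sham 3, PPE 3 and PPE 4 shared slide 2, and sham 4, sham 5 and PPE 5 had a slide each. Red spots well above background made up between 37.6% (sham 5) and 65.8% (PPE 1) of an array. A probe was tested where at least 5 of the 10 arrays had red signal well above background, and a name was represented by its brightest tested probe. Of the 79 members, 77 were tested (47 large, 30 small), and 76 of these were well above background on all 10 arrays. Rpl10l and Rpl39l were not tested. Precision is limited by the number of arrays.

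Most ribosomal protein mRNAs had slightly higher levels in PPE than in sham aorta, and few passed the test one by one. The median difference over the 77 members was 0.32 on the log2 scale (1.25-fold), with quartiles of 0.20 and 0.45, against 0.02 over all 22520 names tested. The difference was above 0 for 69 members and below 0 for 8, and its range was -0.58 to 0.90. By limma with Benjamini-Hochberg adjustment over all names, 6 members were higher at an adjusted p under 0.01 and 0 were lower. Over all names 13.9% were higher and 9.96% lower, so the share of members called, 7.79%, was below that of the array in the upward direction. At an adjusted p under 0.05, 23 members were higher and 0 lower, and 40 had an unadjusted p under 0.05, of which only Rps24 was below 0. Of all 22520 names, 4549 were higher at an adjusted p under 0.05 and 9825 had an unadjusted p under 0.05. These shares of all names were smaller than those of the members, unlike the share at 0.01. The groups did not overlap, with PPE above sham, for 11 members, and with PPE below sham for 0. Over all names these shares were 14.9% and 10.5%. In tissue of mixed cells, fewer cells of a type and less RNA per cell cannot be told apart.

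**Figure D1:**
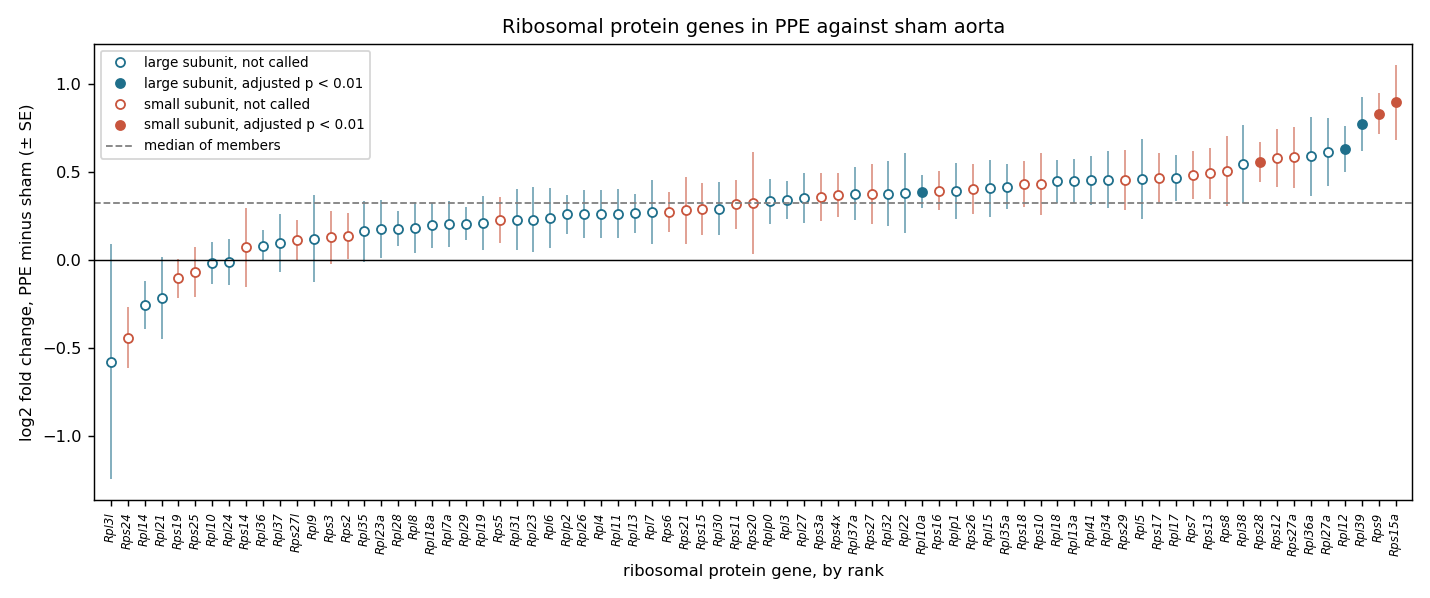
Log2 fold change of PPE minus sham for each of the 77 tested members by rank, with standard error bars, blue for the large and red for the small subunit, filled where limma's adjusted p was under 0.01. Most members lie above 0 around their median of 0.32, the 6 filled points lie on the right, and Rpl3l, at the left end, has the widest error bar.

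The shift was read on each array as the median level of the 77 members. It was -0.55, -0.31, -0.22, -0.36 and 0.02 on sham 1 to 5 and 0.01, 0.11, 0.11, -0.00 and 0.15 on PPE 1 to 5. The groups thus overlapped only through sham 5, the array with the fewest red spots above background. The array medians averaged -0.28 ± 0.21 for sham and 0.08 ± 0.07 for PPE (SD, n = 5 each). Within slide 1 the difference was above 0 for 72 of 77 members, with a median of 0.57, and within slide 2 for 68 of 77, with a median of 0.27. Without sham 5, 11 members were called higher, and with slide as a block, 13. Sham 4, sham 5 and PPE 5, each alone on a slide, add nothing to the group difference in the block fit. Calls over all names changed as well. Leaving out 1 array gave 2514 to 3615 names higher, beside 3122 in the main fit. No setting at an adjusted p under 0.01 gave more than 3615. Most members had bright spots, and loess is fitted along brightness. The brightness of 75 of the 77 was above 13 on the log2 scale, which held for 10.3% of all names, and names in that range had a median difference of 0.11.

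Scaling bears on the count of calls. With each array centred on its median and no loess, the members' median was 1.27 and that of all names 0.41, but the median standard error of members was 0.48 in place of 0.14 and 0 members were called. In that setting 408 names were higher and 8 lower over the whole array, against 3122 and 2244 with loess.

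Read as the median of each array, the subunits differed in their shift by less than the spread between arrays. Of the large subunit 3 of 47 members were called higher (6.38%), with a median difference of 0.26. Of the small subunit 3 of 30 were (10%), with a median of 0.37, beside 13.9% of all names. At an adjusted p under 0.05, 11 of 47 large and 12 of 30 small subunit members were higher, beside 4549 of all 22520 names. These medians and shares over members were higher for the small subunit, which was not tested. On each array the small subunit's median minus that of the large was taken. Sham arrays gave 0.03 ± 0.06 and PPE arrays 0.02 ± 0.10 (SD, n = 5 each), a change of -0.01. Within slide 1 the change was 0.05 and within slide 2 it was -0.05.

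**Figure D2:**
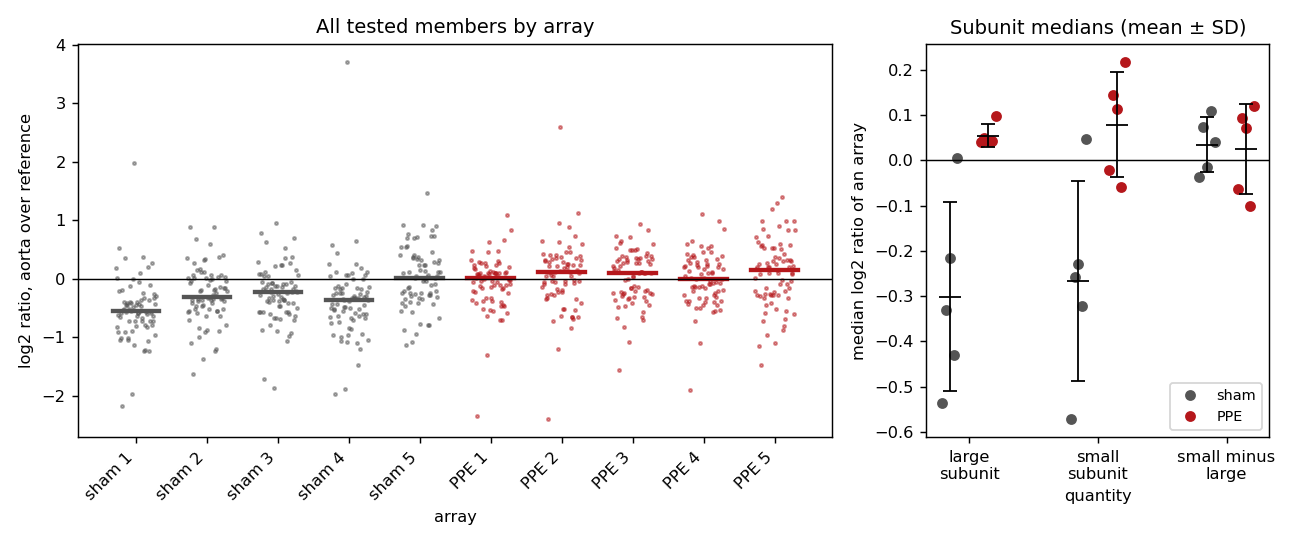
Left, log2 ratio of aorta over reference of each tested member on each array (points), with the array's median as a bar. Right, medians of the large and the small subunit and their difference on each array, with group mean ± SD, where all sham arrays lie below all PPE arrays for the large subunit, 4 of 5 do for the small subunit, and the differences overlap.

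The called members came from both subunits. Rps9, a protein that joins the small subunit early in its assembly, had levels of -0.30, -0.20, 0.07, -0.13 and 0.12 on sham 1 to 5 and 0.84, 0.59, 0.59, 0.85 and 0.83 on PPE 1 to 5. All PPE arrays were above all sham arrays, by at least the whole range of the sham group. The difference was 0.83 (SE 0.12, limma adjusted p 0.000195), a 1.78-fold increase. Rps9 has 1 probe on the array, and it stayed called when any single array was left out and with slide as a block.

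Rpl39, a small protein in the wall of the exit tunnel for the new chain, had levels of -1.14, -0.92, -0.67, -1.07 and -0.41 in sham and 0.08, 0.14, -0.16, -0.12 and -0.28 in PPE. The groups did not overlap, though sham 5 came close to PPE 5. It rose by 0.77 (SE 0.15, limma adjusted p 0.0021). Rpl12, a part of the stalk base where elongation factors bind, had levels of -0.91, -0.55, -0.28, -0.76 and -0.41 in sham and -0.04, -0.05, 0.14, 0.04 and 0.17 in PPE. All PPE arrays again lay above all sham arrays, with a difference of 0.63 (SE 0.13, limma adjusted p 0.0027). Its probe lies on chromosome 10 in mm9, not on chromosome 2 with the gene, so it may read a near-identical copy and the value is uncertain in that respect.

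Rps28, at the mRNA exit of the small subunit, had levels of -0.58, -0.33, -0.17, -0.44 and -0.09 in sham and 0.11, 0.15, 0.31, 0.26 and 0.32 in PPE. Here too the groups did not overlap. It rose by 0.55 (SE 0.11, limma adjusted p 0.0028). Rpl10a, a protein of the L1 stalk near the tRNA exit site, had levels of -0.82, -0.57, -0.57, -0.65 and -0.54 in sham and -0.36, -0.14, -0.23, -0.28 and -0.21 in PPE. The groups did not overlap but lay close, and the difference was 0.39 (SE 0.10, limma adjusted p 0.0078). The second probe of Rpl10a was not called, at 0.34 (SE 0.15, limma adjusted p over all probes 0.12). There PPE 5, at -0.79, lay below all sham arrays. The call of Rpl10a held only in the fit without sham 5 among those that left out 1 array, and it was lost with slide as a block and in most other settings.

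Rps15a, of the small subunit, had the largest difference and the least even one. Its levels were -1.23, -1.23, -0.57, -1.09 and -0.79 in sham and 0.10, 0.12, 0.13, 0.10 and -0.87 in PPE. The first 4 PPE arrays lay between 0.10 and 0.13, above all sham arrays, and PPE 5 lay within the sham range. The difference was 0.90 (SE 0.21, limma adjusted p 0.0066). Without PPE 5 it was 1.09 (limma adjusted p 0.000214), and the call was lost when any of sham 1, sham 2, sham 4 or PPE 1 to 4 was left out, at adjusted p of 0.0168 to 0.0201. A second probe of Rps15a had levels of -1.09, -0.77, -0.52, -1.32 and -0.44 in sham and 0.13, -0.07, 0.18, 0.03 and -0.25 in PPE, where PPE 5 was again the lowest of its group but above all sham arrays.

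PPE 5 stood apart in the same way for Rpl27a and Rpl5. Rpl27a, of the large subunit, had levels of 0.28, 0.33, 0.28, 0.37 and -0.58 on PPE 1 to 5 and between -0.74 and -0.09 in sham, a difference of 0.61 (SE 0.19, limma adjusted p 0.029). Rpl5, which carries 5S ribosomal RNA, had levels of -0.13, -0.20, 0.04, 0.17 and -1.10 on PPE 1 to 5 and between -0.87 and -0.25 in sham, a difference of 0.46 (SE 0.23, limma adjusted p 0.14). Without PPE 5 the difference of Rpl5 was 0.67. Its partner Rpl11, which binds 5S ribosomal RNA with it, had a difference of 0.26 (SE 0.14, limma adjusted p 0.18).

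Of the acidic stalk, which recruits elongation factors, none was called. The difference was 0.33 (SE 0.13) for Rplp0, 0.39 (SE 0.16) for Rplp1 and 0.26 (SE 0.11) for Rplp2, at limma adjusted p of 0.063, 0.077 and 0.096. Rps6, the target of the S6 kinases, had levels of -0.32 to 0.15 in sham and 0.20 to 0.39 in PPE, which did not overlap, and a difference of 0.27 (SE 0.11, limma adjusted p 0.087). Rps19, which is mutated in Diamond-Blackfan anaemia, had a difference of -0.10 (SE 0.11, limma adjusted p 0.52).

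Several members serve as reference genes in qRT-PCR, and they are given for that use. The difference was 0.45 (SE 0.13, limma adjusted p 0.017) for Rpl13a and 0.43 (SE 0.13, limma adjusted p 0.024) for Rps18. For Rpl32 it was 0.38 (SE 0.18) and for Rpl19 0.21 (SE 0.15), at limma adjusted p of 0.14 and 0.33. None was called at an adjusted p under 0.01 through its brightest probe, and all 4 were above 0. At that probe, the levels of Rpl13a on sham arrays, between -0.43 and 0.11, lay below those on PPE arrays, between 0.20 and 0.53. The second, dimmer probe of Rpl13a was called, at 0.83 (SE 0.13, limma adjusted p over all probes 0.000386), again without overlap. The second probe of Rps18 was at 0.09 and that of Rpl19 at 0.22, and neither was called.

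Paralogs were described beside their parent genes. Rpl3l, the form of striated muscle, was the member that varied most between mice. Its levels were 1.98, 0.35, 0.96, 3.71 and 0.38 on sham 1 to 5 and 0.63, 2.59, -0.16, 1.11 and 0.30 on PPE 1 to 5, and 3 arrays of each group had red signal well above background. The groups overlapped over most of their range, with a difference of -0.58 (SE 0.67, 95% interval -2.04 to 0.89, limma adjusted p 0.56). Its 3 highest arrays were sham 4, PPE 2 and sham 1.

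The same 3 arrays had the highest mean level of a list of 17 tested genes of skeletal and cardiac muscle. This mean was 2.93, 1.07, 2.19, 4.07 and 1.77 on sham 1 to 5 and 1.54, 3.13, 0.45, 1.90 and 1.46 on PPE 1 to 5. Of that list 0 genes were higher and 2 lower in PPE (11.8%, beside 9.96% of all names), with a median difference of -0.36. The part of muscle RNA in the levels of Rpl3l was not tested. Its parent Rpl3, which sits near the peptidyl transferase centre, had levels of -1.004, -0.99, -0.80, -1.06 and -1.07 in sham and -0.51, -0.72, -0.83, -0.72 and -0.45 in PPE. Only PPE 3 fell within the sham range, and the difference was 0.34 (SE 0.11, limma adjusted p 0.029).

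No array had Rpl10l well above background in either channel. Rpl39l was well above background in the red channel on sham 3, sham 4, PPE 1 and PPE 2 and in the green channel on all 10 arrays. Of 10 germ cell genes listed beside them, 3 were tested. The 2 called higher were well above background on just 5 of the 10 arrays, the least the filter allows, so nothing is read from that count. Rpl10, the parent of Rpl10l, had levels of 0.19 to 0.40 in sham and 0.02 to 0.64 in PPE, with a difference of -0.02 (SE 0.12, 95% interval -0.28 to 0.25) whose sign changed with the scaling. No probe was named Rps4l, and Rps4x had a difference of 0.37 (SE 0.12, limma adjusted p 0.039).

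Rps27l, a p53-induced paralog of Rps27, had levels of -0.55, -0.31, -0.41, -0.31 and 0.01 in sham and -0.10, -0.35, -0.19, -0.20 and -0.16 in PPE. The groups overlapped, and the difference was 0.11 (SE 0.12, limma adjusted p 0.51), beside 0.38 (SE 0.17, limma adjusted p 0.11) for Rps27. Of the paralogs named outside the rule, Rpl36al was called, with levels of -0.63 to -0.22 in sham and -0.14 to 0.16 in PPE and a difference of 0.57 (SE 0.11, limma adjusted p 0.0020). The difference of its relative Rpl36a was 0.59 (SE 0.23, limma adjusted p 0.063). It was 0.29 (SE 0.18, limma adjusted p 0.25) for Rpl22l1 and 0.38 (SE 0.23, limma adjusted p 0.23) for Rpl22. It was 0.31 (SE 0.10, limma adjusted p 0.036) for Rpl7l1 and 0.27 (SE 0.18, limma adjusted p 0.29) for Rpl7. Differences between a paralog and its parent were not tested.

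Some ribosomal proteins have names that the rule does not take. Rpsa, the small subunit protein also known as the laminin receptor, had levels of -0.73 to -0.40 in sham and -0.25 to 0.11 in PPE and rose by 0.54 (SE 0.11, limma adjusted p 0.0019). The difference was 0.45 (SE 0.15, limma adjusted p 0.036) for Fau, which encodes Rps30 fused to a ubiquitin-like protein, and 0.57 (SE 0.21, limma adjusted p 0.051) for Gnb2l1, the scaffold RACK1. Of the 7 tested names of this list, which takes in the paralogs outside the rule, 2 were called higher and 0 lower, with a median of 0.45. Over all names 13.9% were higher and 9.96% lower.

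To ask which members departed from the rest, each array was centred on the median of the members and all names were fitted anew. By limma, 0 members were higher and 2 were lower, Rps24 at -0.80 (SE 0.15, adjusted p 0.0012) and Rpl14 at -0.62 (SE 0.14, adjusted p 0.0049). On this scale 6.64% of all names were higher and 17.5% lower. Rps24 is a small subunit protein whose mRNA is spliced into several forms, and Rpl14 is a large subunit protein. The levels of Rpl14 on the usual scale were 0.53, 0.89, 0.78, 0.59 and 0.92 in sham and 0.18, 0.30, 0.73, 0.59 and 0.63 in PPE, and the groups overlapped. Its departure was lost when sham 1, 2, 3 or 4 or PPE 1 or 2 was left out, and its second, dimmer probe had a difference of 0.21. Rps24 departed without each array in turn but not when its 3 probes were averaged. With the mean of probes, Rpl14 did not depart either, and Rpl10, Rpl21, Rps19 and Rps9 did. Rpl21, of the large subunit, was also among the members farthest below. On the usual scale its difference was -0.22 (SE 0.23, limma adjusted p 0.53). Its probe was dim for a member, with a brightness of 8.76 on the log2 scale.

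Members with several tested probes were used to see how far 1 probe speaks for a gene. Of 167 tested probes of members, 22 (of 16 members) were higher and 0 lower by limma adjusted over all probes, against 12.8% higher and 9.15% lower of all 30836 probes. Among 53 members with several tested probes, the spread of the differences was under 0.25 for 33. All 7 probes of Rpl17 had differences above 0, from 0.47 to 0.88, and 4 of them were called. Probes of both signs were seen for 7 members, with Rps24 spread widest (-0.44 to 0.75), followed by Rps15a (-0.07 to 0.90) and Rpl15 (-0.30 to 0.41).

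**Figure D3:**
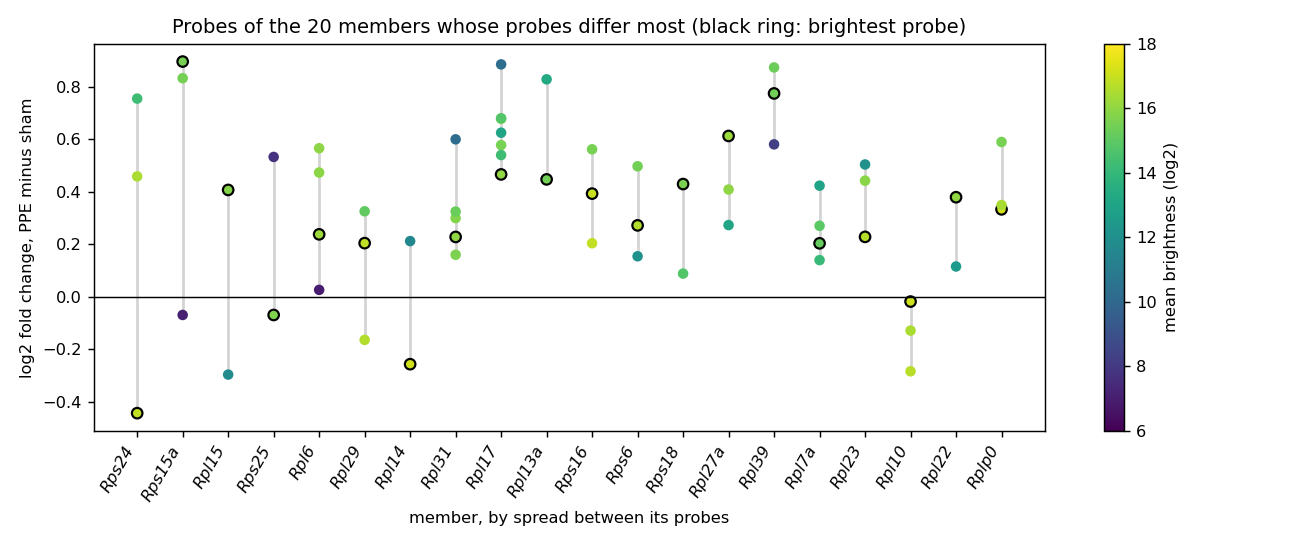
Log2 fold change of PPE minus sham of each tested probe for the members whose probes differ most, coloured by mean brightness, with the brightest probe of each member ringed. Rps24 is the widest, with its brightest probe at -0.44 and another at 0.75, and its 3 probes are all bright. The low probes of Rps15a and Rpl15 are dimmer than the ringed probe of the same member. That of Rpl15, at 11.8, is still above the median brightness of all tested names, 9.14.

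Within an array, the difference between 2 probes of 1 name does not depend on how arrays are centred. Over 12315 such pairs, 5.29% changed between PPE and sham at a limma adjusted p under 0.01, and of 144 pairs in members, 3 did, 2 of them in Rps24 and 1 in Rpl6. This test was added after the probes of Rps24 had been seen to differ. The 3 probes of Rps24 lie on chromosome 14 (mm9). A_55_P1955243 spans chr14:25312695-25315015, a stretch of 2321 bases for a probe of 60, and the files list it for 1 RefSeq transcript. A_55_P2032600 (chr14:25315021-25315080) and A_55_P1993880 (chr14:25311190-25312666) are listed for 3.

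The letters of the probe listed for 1 transcript and of a shared one are given because the gene's sign depends on which is read. The first 50 bases of the former and all of the latter are printed 5′ to 3′, with no letters in capitals.
A_55_P1955243: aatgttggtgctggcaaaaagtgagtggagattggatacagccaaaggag
A_55_P1993880: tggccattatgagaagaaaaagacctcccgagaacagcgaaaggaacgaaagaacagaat

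The probe of 1 transcript had levels of 0.21, 0.37, 0.28, 0.19 and 0.84 in sham and -0.44, -0.01, 0.11, -0.31 and 0.32 in PPE, with a difference of -0.44 (SE 0.17, limma adjusted p 0.069). A_55_P1993880 had levels of -0.997, -1.06, -0.83, -1.14 and -0.37 in sham and 0.00, -0.19, -0.28, -0.40 and 0.25 in PPE, with a difference of 0.75. Only PPE 4 fell below the highest sham array, sham 5. A_55_P2032600 had levels of -0.28, 0.02, -0.12, -0.26 and 0.52 in sham and 0.17, 0.55, 0.44, 0.11 and 0.92 in PPE. Of the 3 probes of Rps24, 1 was called higher and 0 lower by limma adjusted over all probes.

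The level of A_55_P1955243 minus that of A_55_P2032600 was 0.48, 0.35, 0.40, 0.44 and 0.32 on sham 1 to 5 and -0.60, -0.56, -0.33, -0.42 and -0.60 on PPE 1 to 5. The groups did not overlap, and only the change between groups is read, since the zero of a difference between probes has no meaning. The difference between groups was -0.90 (SE 0.10, limma adjusted p 0.000181). Against A_55_P1993880 sham arrays gave 1.25 ± 0.12 and PPE arrays 0.06 ± 0.30 (SD, n = 5 each), a difference of -1.20 (SE 0.15, limma adjusted p 0.000305), again without overlap. Within slide 1 these differences were -1.07 and -1.33, and within slide 2 they were -0.75 and -1.03. The pair of shared probes differed by -0.30 (SE 0.14, limma adjusted p 0.22). Array probes do not resolve whole transcripts, and no annotation of exons on mm9 was used here.

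**Figure D4:**
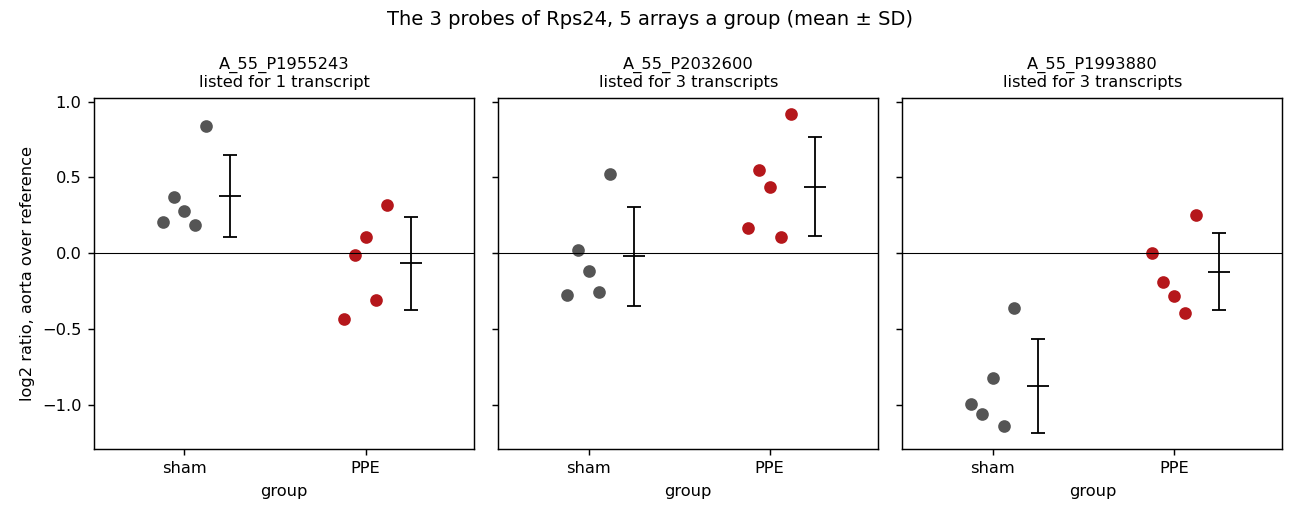
Log2 ratio of aorta over reference on each array for the 3 probes of Rps24, with group mean ± SD. PPE arrays lie lower on average at the probe listed for 1 transcript and higher at the other probes, and the groups overlap at each probe taken alone.

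Ribosomal protein genes have many processed copies, and some probes lie on another chromosome than the gene. Of 167 tested probes of members, 150 lay on the chromosome of the gene (RefSeq), 13 on another, and for 4 the probe's or the gene's chromosome was not in the tables used. The median difference was 0.35 for the first and 0.38 for the second. The representative probe lay elsewhere for 3 members, Rpl12, Rps27 and Rps29.

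Other genes of translation did not move as one. The mitochondrial ribosome, a separate machine with its own proteins, had differences mostly below 0. Of its 76 members 1 was higher (Mrpl52) and 16 were lower, 1.32% and 21.1% beside 13.9% and 9.96% of all names. The difference was below 0 for 66, with a median of -0.24. Mrps36, also described as a part of the alpha-ketoglutarate dehydrogenase complex, fell by 1.38 (SE 0.15, limma adjusted p 2.91e-05), from levels of 0.04 to 0.65 in sham to -1.28 to -0.79 in PPE. Mrpl55 fell by 0.86 (SE 0.13, limma adjusted p 0.000287) and Mrps35 fell by 0.79 (SE 0.12, limma adjusted p 0.000466).

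Of 9 names listed as elongation factors 1 was higher (11.1%) and 0 lower, beside 13.9% and 9.96% of all names. Their median was 0.27, with 5 above 0 and 4 below. The list also held Eef1e1 (0.34) and Tpt1 (0.43), which are not elongation factors themselves. The called gene was Eef1b2, an exchange factor for eEF1A, at 0.82 (SE 0.11, limma adjusted p 0.000126). Of 40 names listed as initiation factors 5 were higher (12.5%) and 2 lower (5%), with a median of 0.02, shares below the 13.9% and 9.96% of all names. That list also held Pabpc1 and inhibitors such as Eif4ebp1. Eif4g3, a scaffold of the cap complex, was higher by 0.89 (SE 0.22) and Eif1a, which helps scan for the start codon, by 0.80 (SE 0.12), at limma adjusted p of 0.0082 and 0.00026. Eif1, which guards start codon choice, fell by 0.78 (SE 0.16, limma adjusted p 0.0023).

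Of 49 ribosome assembly factors 6 were higher (12.2%) and 2 lower (4.08%), with a median of 0.21, shares again below those of all names. Heatr1, needed for the precursor of ribosomal RNA, rose by 0.99 (SE 0.12, limma adjusted p 6.3e-05), and Tcof1, which supports transcription of ribosomal DNA, by 0.84 (SE 0.15, limma adjusted p 0.0011). Pes1, of the PeBoW complex in large subunit assembly, fell by 0.98 (SE 0.16, limma adjusted p 0.000499). Of 14 RNA polymerase I genes, Taf1d (0.68, SE 0.14) and Znrd1 (0.53, SE 0.12) were higher and 0 lower, with a median of 0.13. The share called higher, 14.3%, was near the 13.9% of all names. Of 22 regulators of ribosomal protein synthesis 2 were higher and 2 lower (9.09% each), shares below the 13.9% and 9.96% of all names. The higher ones were Myc, a driver of ribosome production, at 1.10 (SE 0.21, limma adjusted p 0.0018) and Cdkn1a, the cell cycle inhibitor p21, at 0.77 (SE 0.14, limma adjusted p 0.0012). The lower ones were Rheb, the activator of mTORC1, at -0.60 (SE 0.12, limma adjusted p 0.0029) and Cnbp at -0.55 (limma adjusted p 0.0019).

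**Figure D5:**
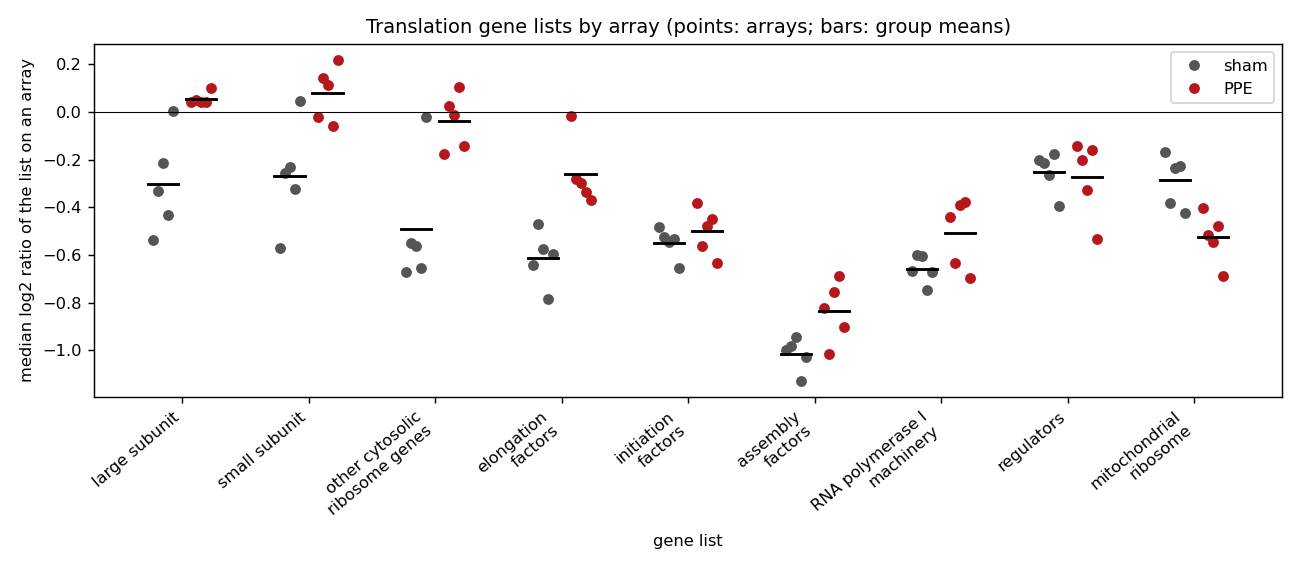
Median log2 ratio of aorta over reference of each gene list on each array, with group means as bars. Both subunits are higher on average in PPE and the mitochondrial ribosome lower, and the groups overlap in the small subunit through sham 5 and in the mitochondrial ribosome through sham 5 and PPE 1.

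The makeup of the tissue moved with the groups. Over all names 13.9% were higher and 9.96% lower. Of 12 macrophage markers 9 were higher and 0 lower, and their mean level was 0.90 to 1.43 on sham and 2.82 to 3.89 on PPE arrays. Of 10 T cell markers 7 were higher and 0 lower (-1.26 to -0.05 on sham, 0.59 to 1.68 on PPE). Of 6 tested B cell markers 0 were higher or lower by limma, and 1 had an unadjusted p under 0.05. Of 14 smooth muscle contraction genes 0 were higher and 12 lower (3.23 to 4.38 on sham, 1.62 to 2.65 on PPE), so the markers of the labelled tissue were well measured in both groups. Of 15 cell cycle genes 12 were higher and 0 lower (-3.83 to -2.71 on sham, -2.28 to -1.67 on PPE). Of 12 fat genes 0 were higher and 5 lower. Among the 5, Elovl3 was well above background on just 5 of the 10 arrays, the least the filter allows, so nothing is read from its call. Of 10 endothelial genes 0 were called by limma, with 3 at an unadjusted p under 0.05. The part of these cell types in the levels of ribosomal protein genes was not tested.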

How the data were processed

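The authors hybridized RNA of 1 aorta per array and read the scans with Agilent Feature Extraction (10.7.3.1). The deposited mean signal and local background of a spot are each a linear intensity, given for 62976 spots per array, 59305 of them not controls. The LogRatio deposited for each spot is log10 of the red over the green channel, and the authors' table of log2 ratios, with column medians of -0.16 to 0.12, equalled log2 of processed red over green on 100% of spots within 1e-04. Its centring is not stated. Per the study's methods, some arrays were excluded beforehand, and which ones is not given.

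Normexp (offset 50) and loess within each array were run in limma 3.58.1 under R 4.3.3. Groups were compared two-sided and unpaired with lmFit and eBayes over all 22520 names, with Benjamini-Hochberg adjustment. The scripts were tested on simulated data. Adjusted p-values throughout are limma's. Named were paralogs and their parents, called members, those farthest from the rest, members in fixed roles and the leading called genes of each list. Other genes were named after their values were seen (Rpl27a, Rpl15, Rpl17, Rpl6, Mrpl52, Cnbp, Eef1e1, Tpt1 and Elovl3). Some genes of the lists are not reported here. Members and lists were chosen with earlier results of these data known. Alternatives covered scaling, background, filters, probe choice, blocks and leaving out each array.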

Additional observations from a re-analysis of the deposited data

Results flagged for a closer look

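Among 104 groups of 5 arrays (named genes and subunit medians), 16 held 1 array whose gap to its nearest neighbour was more than 0.71 of the group's range, where chance gives about 1 in 20. In sham, sham 5 was the highest array for Rpl36al (-0.22), Rpl7 (0.32), Rps24 (0.84) and Rpl11 (0.54). Sham 3 was highest for Rpl3 (-0.80) and Rpl5 (-0.25), sham 1 was lowest for Rps6 (-0.32) and sham 4 was highest for Mrpl55 (1.05). In PPE, PPE 5 was the highest array for Rpl22 (0.98), Rpl36a (-0.41) and the large subunit median (0.10), and the lowest for Rps15a (-0.87), Rpl5 (-1.10), Eif4g3 (0.29) and Rheb (-0.61). PPE 1 was highest for Eef1b2 (-0.0181). Sham 5 and PPE 5 were the arrays with fewest red spots over background (37.6% and 45.8%), and the part of this in the values above was not tested.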

How the results depend on the processing

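With median centring and no loess, 0 members and 0 member probes were higher, 5 members departed lower, and the medians of all, large and small subunit members were 1.27, 1.24 and 1.32, while the median of all names moved to 0.41. There the sign changed for Rpl10 (1.02), Rps24 (0.59), Rpl14 (0.78), Rpl21 (0.24), Rps19 (0.78), Eif1 (0.12) and Rheb (0.0126). With scale between arrays, 1 member departed lower and Rpl21 was at 0.0873. Centred on the members' median, 0 members were higher and 2 lower, 1 probe was higher and 4 lower, and the signs changed of Rps27l (-0.25), Rpl22l1 (-0.0657), Rpl7l1 (-0.0469), Rpl3 (-0.0197), Rpl7 (-0.0877), Rplp0 (-0.0266), Rplp2 (-0.10), Rpl19 (-0.15), Rpl11 (-0.10) and Rps6 (-0.0877). With the deposited LogRatio, and with the series table, 1 member (Rps24, -0.57) and 1 member probe were lower, 1 member departed higher and 5 probe pairs changed. With the red channel alone, 1 member departed lower, 14 probes were higher, Rpl10, Rpl14 and Rpl21 were at 0.0421, 0.0660 and 0.00321, and the first Rps24 pair was at -0.60. Without a filter, and with the mean of probes, 1 member departed higher, and the mean put Rps24 at 0.26. With that mean the departing members were Rpl10, Rpl21, Rps19 and Rps9, and no longer Rps24 and Rpl14. With slide as a block, 13 members and 38 probes were higher and 1 member departed higher. That fit takes nothing on the group difference from sham 4, sham 5 and PPE 5, each alone on a slide. Its large subunit median was 0.39, Rpl10 was at 0.0488 and 5 probe pairs changed. At an adjusted p under 0.05, 23 members and 52 probes were higher, and 2 members departed higher and 6 lower. The causes were not tested.

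Leaving out each array in turn gave 4 to 11 members higher, 13 to 31 probes higher, 1 to 2 members departing lower and 0 to 1 higher, 2 to 6 probe pairs changed, a large subunit median of 0.24 to 0.36, a small subunit median of 0.30 to 0.48, a members' median of 0.26 to 0.41 and Rpl10 at -0.11 to 0.0487. Over all names, leaving out 1 array gave 2514 to 3615 higher and 1752 to 2348 lower, beside 3122 and 2244 in the main fit. The replicate block gave 8 members higher. The labels number arrays 1 to 5 in both groups, and deviations of same-numbered arrays correlated at 0.29, -0.30, 0.16, -0.14 and 0.52, so the numbers were not taken as pairs. Median centring and centring on the members ended the calls of all 6 called members. In the other settings Rps9 kept its call, while Rpl12 lost it with the LogRatio and the series table, Rpl39 and Rps28 with the red channel alone, and Rps15a without a filter, with the mean of probes, with the replicate block and in 7 of the 10 fits that left out 1 array. Rpl10a kept it only in 3 settings, without a filter, with probes above background on all 10 arrays and without sham 5.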

Other observations

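Names of ribosomal protein pseudogenes, which the rule leaves out, had a median difference of 0.32 over 43 tested of 48, close to that of the members. Of these names 5 were higher (11.6%) and 0 lower, beside 13.9% and 9.96% of all names. Among them were Rpl12-ps1 (0.66), Rpl17-ps1 (0.55), Rpl27a-ps1 (0.75) and Rps24-ps2 (0.68). Whether their probes read the parent mRNA was not tested.

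Of the list of initiation factors, Eif6, which keeps the subunits apart and takes part in large subunit assembly, was higher by 0.65 (limma adjusted p 0.00089). Pabpc1, the poly(A)-binding protein, whose own mRNA begins with a pyrimidine run, was higher by 0.70 (limma adjusted p 0.0039). Eif4ebp1, which holds the cap-binding protein back until mTORC1 releases it, was lower at -0.70 (limma adjusted p 0.0085). These genes were chosen after their values were seen.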
